A study of Mus musculus with 13 samples.

Results

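Spp1, Gpnmb, Igf1 and Lgals3 were followed through the 13 libraries of a study of mouse microglia, the resident macrophages of the brain. The 4 genes, of 19737 in the deposited table, were chosen by symbol as genes of late disease-associated microglia, and Spp1 and Gpnmb also because their levels were higher in PKR knockout 5xFAD microglia than in the other 5xFAD microglia. RNA depleted of ribosomal RNA had been sequenced, and levels are given in FPKM, in which a gene's fragments are divided by its length and by the size of the library, so that genes can be compared per length. The EGFP reporter, packaged in AAV PHP.eB, an adeno-associated virus that reaches the brain from the blood, had been given to wild type animals (n = 3) and to 5xFAD animals (n = 2). In the circRNA group of 5xFAD animals (n = 4), the virus instead delivered a circular RNA, circPOLR2A, and the treatment labels differ from library to library in their last number. The remaining group was 5xFAD with PKR knockout (n = 4), with no virus named. 5xFAD is a transgenic mouse model of Alzheimer's disease in which transgenes driven by the neuronal Thy1 promoter lead to early amyloid deposits. Age, sex, strain background, the design of the knockout allele and the way in which the cells were isolated are not given in the sources used here. Nothing says that the libraries of a group came from separate mice, so the p-values measure the spread between these libraries, which may be technical.

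Microglia that gather at amyloid plaques switch on a programme in which homeostatic genes fall and genes for lipid handling, lysosomes and secreted factors rise, the later step of which depends on the receptor TREM2. Spp1 encodes osteopontin, a secreted phosphoprotein that binds integrins and CD44. Gpnmb encodes a transmembrane glycoprotein of lysosomes and the cell surface that is induced when lysosomes are loaded with lipid, and it is related to the melanosome protein PMEL. Igf1 encodes insulin-like growth factor 1, a secreted ligand of the IGF1 receptor. Lgals3 encodes galectin-3, a lectin that binds beta-galactosides at the cell surface and on damaged lysosomes. Osteopontin and insulin-like growth factor 1 are also made by other cells of the brain and its borders.

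In GRCm38, Spp1 lies on the plus strand of chromosome 5 (104435118 to 104441050), Gpnmb on the plus strand of chromosome 6 (49036546 to 49070929), Igf1 on the plus strand of chromosome 10 (87858265 to 87937042) and Lgals3 on the plus strand of chromosome 14 (47367751 to 47386160). A predicted gene on the same strand, Gm42793, overlaps Spp1, and an antisense gene, Igf1os, overlaps Igf1. The libraries were stranded, but whether counting used the strand is not given in the sources used here, so reads of Igf1 and Igf1os cannot be told apart. Spp1 and Gpnmb, both chosen for their knockout levels, lie on different chromosomes, and the 250 bases before their RefSeq start sites (GRCm38.p6, plus strand) are shown for comparison, at chr5:104434861-104435110 and chr6:49036268-49036517. Capitals mark a match to GAGGAAG, a sequence bound by PU.1, the transcription factor that defines macrophages and microglia.
Spp1: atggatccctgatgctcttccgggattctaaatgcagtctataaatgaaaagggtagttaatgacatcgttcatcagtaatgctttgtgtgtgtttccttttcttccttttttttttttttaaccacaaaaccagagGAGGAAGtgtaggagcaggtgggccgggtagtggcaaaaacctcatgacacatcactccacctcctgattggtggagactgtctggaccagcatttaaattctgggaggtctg
Gpnmb: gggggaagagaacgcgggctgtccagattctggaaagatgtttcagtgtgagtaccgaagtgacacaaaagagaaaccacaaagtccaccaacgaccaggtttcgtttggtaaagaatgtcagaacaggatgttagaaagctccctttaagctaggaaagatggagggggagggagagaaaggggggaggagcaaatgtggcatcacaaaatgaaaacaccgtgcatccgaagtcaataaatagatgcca
The match in Spp1 lies 113 bases before the start site. It was searched on both strands, and it was found in 10.6% of 32851 RefSeq promoters over the same 250 bases. Searched in the same way, the AP-1 motif TGANTCA was found in 6.75% of promoters. The E-box CACGTG was found in 6.02%, and the motif of the MITF family, TCATGTG, in 3.25%. The window of Gpnmb matched none of the 4 motifs. A second RefSeq start site of Spp1, at 104436192, has a window wholly within exons, which is not printed. The window of Igf1 lies wholly within exons of its other transcripts and is not printed, and it held the AP-1 motif 37 bases and the PU.1 motif 60 bases before the start. The window of Lgals3 held no match. The motifs were chosen after the sequences had been seen, and a match describes letters, not a bound site.

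Depth was between 45.2 and 70.0 M (mega) fragments for each library, and the PKR knockout libraries, at 57.7 M or more, were all deeper than the others, at 54.9 M or less. Each of the 7 microglia markers was found in every library, with summed levels between 2765 and 5250 FPKM. Wild type replicate 3 stood apart, with the lowest sum of microglia markers (2765 FPKM, against 3558 FPKM or more in the others) and the highest sum of oligodendrocyte markers (1564 FPKM, against 775 FPKM or less). Eif2ak2, which encodes PKR, was measured at 3.35, 4.61, 3.31 and 4.16 FPKM in the knockout libraries. It was measured at 6.49 and 6.59 FPKM in 5xFAD with EGFP, at 7.37, 7.48, 7.73 and 8.11 FPKM with the circRNA, and at 5.18, 5.23 and 4.14 FPKM in wild type. The knockout libraries lay below all other 5xFAD libraries and overlapped wild type. The part of the gene that was removed is not given in the sources used here, and reads from a part left in place check nothing. The labels give library names for the knockout libraries alone and name no virus for them. Genotype, any batch these libraries share and any difference in virus cannot be told apart.

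Spp1 was low in wild type microglia and among the more abundant transcripts of 5xFAD microglia. Its level was 3.31, 2.85 and 2.36 FPKM in the wild type libraries and 99.5 and 98.2 FPKM in 5xFAD with EGFP. It was 107, 122, 241 and 89.8 FPKM with the circRNA, and 189, 292, 405 and 204 FPKM with PKR knockout. The wild type libraries lay far below all others, the EGFP pair was nearly equal, and replicate 3 of the circRNA group stood above 2 of the 4 knockout libraries, so those groups overlapped. The group means were 2.84 ± 0.47 FPKM (SD, n = 3), 98.9 ± 0.96 FPKM (SD, n = 2), 140 ± 68.6 FPKM (SD, n = 4) and 272 ± 99.2 FPKM (SD, n = 4). Counted by level within a library, Spp1 ranked between 38 and 85 with PKR knockout and between 74 and 149 with the circRNA, which overlap. It ranked at 133 and 141 in the EGFP pair, and between 7054.5 and 8601 in wild type.

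Gpnmb was almost absent from wild type microglia. Its level was 0.107, 0.0998 and 0.148 FPKM there, which came from 31 to 48 fragments with a counting error of 14.4% to 18.0%. It was 26.6 and 31.6 FPKM in 5xFAD with EGFP, 28.8, 31.0, 47.5 and 29.5 FPKM with the circRNA, and 55.2, 78.7, 83.6 and 55.8 FPKM with PKR knockout. All 4 knockout libraries lay above every other library, the EGFP libraries lay 1 below and 1 inside the circRNA range, and circRNA replicate 3 was again the highest of its group. The means were 0.118 ± 0.026 FPKM (SD, n = 3) in wild type, 29.1 ± 3.55 FPKM (SD, n = 2) with EGFP, 34.2 ± 8.90 FPKM (SD, n = 4) with the circRNA and 68.3 ± 15.0 FPKM (SD, n = 4) with PKR knockout. Per length, Gpnmb was below Spp1 in each of the 13 libraries.

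Igf1 was low in wild type and stood at a similar level in the 3 5xFAD groups. It was 0.534, 0.671 and 0.499 FPKM in wild type and 13.3 and 14.5 FPKM in 5xFAD with EGFP. It was 16.3, 14.9, 17.0 and 12.0 FPKM with the circRNA and 13.8, 16.0, 12.3 and 17.6 FPKM with PKR knockout. The 5xFAD groups overlapped one another, and none of their libraries came near wild type. Knockout replicate 3, the highest of its group for Spp1 and Gpnmb, was the lowest of its group for Igf1. The means were 0.568 ± 0.091 FPKM (SD, n = 3), 13.9 ± 0.85 FPKM (SD, n = 2), 15.1 ± 2.21 FPKM (SD, n = 4) and 14.9 ± 2.33 FPKM (SD, n = 4), in the same order.

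Lgals3 had the smallest rise of the 4 genes. It was 1.75, 1.43 and 1.81 FPKM in wild type and 8.63 and 7.97 FPKM in 5xFAD with EGFP. It was 9.82, 12.0, 14.6 and 7.82 FPKM with the circRNA and 9.26, 9.75, 9.43 and 9.26 FPKM with PKR knockout. The knockout libraries were close together, just above the EGFP pair and inside the wide range of the circRNA libraries. The means were 1.67 ± 0.20 FPKM (SD, n = 3), 8.30 ± 0.47 FPKM (SD, n = 2), 11.1 ± 2.92 FPKM (SD, n = 4) and 9.42 ± 0.23 FPKM (SD, n = 4).

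**Figure D1:**
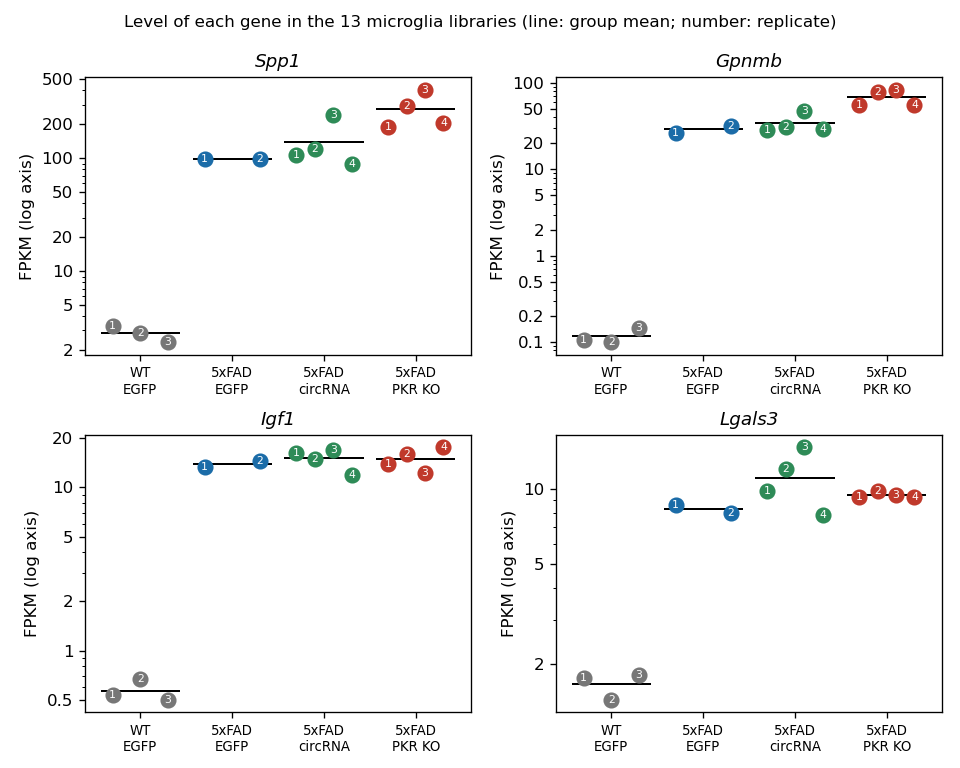
Level in FPKM (log axis) of each gene in the 13 libraries, by group, with points numbered by replicate and a line at the group mean. For Spp1 and Gpnmb the PKR knockout means (272 and 68.3 FPKM) stand above the other groups, while the 5xFAD means span 13.9 to 15.1 FPKM for Igf1 and 8.30 to 11.1 FPKM for Lgals3.

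The order of the levels differed between the genes. For Spp1 and Gpnmb the group means ran, from low to high, wild type, EGFP, circRNA and PKR knockout, and the EGFP and circRNA groups did not differ beyond their spread. For Igf1 the 3 5xFAD means lay between 13.9 and 15.1 FPKM and did not differ beyond their spread. For Lgals3 the circRNA mean was the highest, and the knockout mean lay within the circRNA range. Replicate 3 of the circRNA group was the highest of its group for all 4 genes. That library also had the lowest depth (45.2 M fragments), the highest FPKM sum (170775, against 123352 to 156281 in the other libraries) and the highest sum of microglia markers (5250 FPKM), and the part of these in its values was not tested. Fewer cells of a type and less RNA per cell cannot be told apart in bulk samples such as these.

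The comparison of 5xFAD with wild type under the EGFP vector asks what the disease model does to the genes. All 4 were higher in 5xFAD. Spp1 was 34.8-fold higher as a ratio of mean FPKM, Gpnmb 246-fold, Igf1 24.4-fold and Lgals3 4.98-fold. On the log2(FPKM + 1) scale used for testing, which understates changes of genes near or below 1 FPKM, the difference was 4.71 for Spp1 (SE 0.38, adjusted p = 5.83e-06). It was 1.80 for Lgals3 (SE 0.18, adjusted p = 3.35e-05), by limma with Benjamini-Hochberg adjustment over the 10817 genes whose mean over all libraries reached 1 FPKM. Gpnmb and Igf1 were below 1 FPKM in wild type and passed that filter through the 5xFAD libraries alone, so their tests are given from a limma fit with no filter, over 18291 genes. In it the difference was 4.75 for Gpnmb (SE 0.23, adjusted p = 1.11e-06) and 3.24 for Igf1 (SE 0.15, adjusted p = 1.06e-06). Without wild type replicate 3 the differences were 4.62 for Spp1, 4.77 for Gpnmb, 3.21 for Igf1 and 1.84 for Lgals3. By size of the rise on this scale Gpnmb ranked 2, Spp1 3, Igf1 10 and Lgals3 63 of the 18291 genes of the fit with no filter. Of the 10817 genes, 14.0% passed the adjusted p threshold of 0.05 (7.65% higher and 6.35% lower), and 16.5% were higher with no overlap between the groups.

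The same wild type libraries served as controls for the other 5xFAD groups, so the comparisons are not independent and are given side by side. With the circRNA the log2 difference from wild type was 5.10 for Spp1 (SE 0.31, adjusted p = 2.80e-07) and 2.15 for Lgals3 (SE 0.15, adjusted p = 7.67e-07). With no filter it was 4.95 for Gpnmb (SE 0.19, adjusted p = 9.78e-08) and 3.35 for Igf1 (SE 0.13, adjusted p = 9.78e-08). Here 25.8% of the 10817 genes passed (17.8% higher and 8.05% lower) and 20.2% were higher without overlap. With PKR knockout the difference was 1.97 for Lgals3 (SE 0.15, adjusted p = 1.32e-06) and, with no filter, 3.33 for Igf1 (SE 0.13, adjusted p = 9.25e-08). There 37.0% of the 10817 genes passed (17.5% higher and 19.4% lower) and 19.8% were higher without overlap. Spp1 and Gpnmb were chosen for their knockout levels, so their differences from wild type, 6.09 (SE 0.31) and 5.93 (SE 0.18), are descriptions. No 5xFAD library overlapped wild type for any of the 4 genes.

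Between the circRNA and the EGFP vector in 5xFAD, none of the 4 genes passed the test, and none had groups that did not overlap. Spp1 was 1.42-fold the EGFP mean, with a log2 difference of 0.39 (95% interval −0.38 to 1.17, adjusted p = 0.748). Gpnmb differed by 0.20 (−0.26 to 0.65, adjusted p = 0.770), Igf1 by 0.10 (−0.21 to 0.41, adjusted p = 0.811) and Lgals3 by 0.34 (−0.02 to 0.71, adjusted p = 0.739). The intervals hold both no change and, for Spp1, a rise past 1 log2 unit. Without circRNA replicate 3 the differences of Spp1 and Gpnmb were 0.10 and 0.04, and those of Igf1 and Lgals3 were 0.04 and 0.21. Leaving out each library gave 0.04 to 0.20 for Igf1 and 0.21 to 0.48 for Lgals3. By limma 0 of 10817 genes passed here (0%), against 523 at an unadjusted p under 0.05, and 0 passed with voom on recovered fragments, while 16.6% of genes were higher with the circRNA without overlap.

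In PKR knockout 5xFAD microglia Spp1 was 2.76-fold and Gpnmb 2.35-fold the level of 5xFAD with EGFP, whereas Igf1 was 1.08-fold and Lgals3 1.14-fold. These contrasts chose Spp1 and Gpnmb and are given without a test. The log2 differences from EGFP were 1.39 for Spp1 (SE 0.36), 1.18 for Gpnmb (SE 0.21), 0.09 for Igf1 (SE 0.14) and 0.17 for Lgals3 (SE 0.17). By size of the rise Spp1 ranked 4 and Gpnmb 7 of 10817 genes, and Igf1 ranked 3432 and Lgals3 2003. Spp1, Gpnmb and Lgals3 did not overlap between the groups, with all knockout libraries higher. Of all genes, 0.0832% passed the test here (9 genes, all higher), and 17.7% were higher without overlap.

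Against the circRNA group, with PKR knockout Spp1 was 1.94-fold and Gpnmb 2.00-fold the circRNA mean, and Igf1 and Lgals3 were 0.991-fold and 0.852-fold. The log2 differences were 0.99 for Spp1 (SE 0.29), 0.98 for Gpnmb (SE 0.17), −0.01 for Igf1 (SE 0.12) and −0.18 for Lgals3 (SE 0.14). Gpnmb alone of the 4 did not overlap, where 4.44% of all genes were higher without overlap and 6.19% passed the test (1.91% higher and 4.28% lower). The Lgals3 difference was −0.04 without circRNA replicate 3 and −0.32 without circRNA replicate 4. Without circRNA replicate 3 the Spp1 difference was 1.29, and the remaining circRNA libraries, up to 122 FPKM, lay below the lowest knockout library at 189 FPKM. The EGFP and the circRNA contrasts share the knockout libraries.

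**Figure D2:**
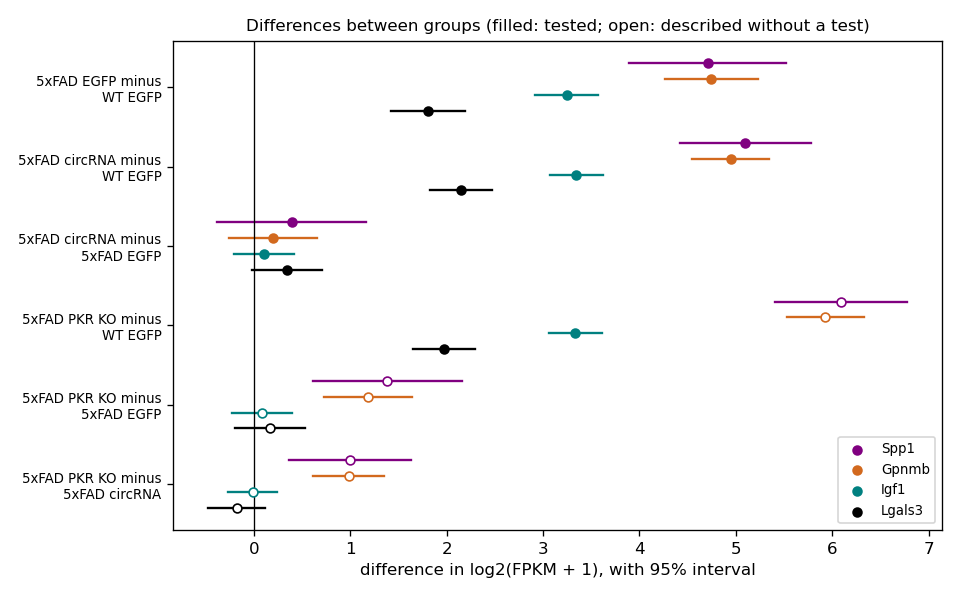
Difference between group means in log2(FPKM + 1), with the 95% interval from limma, for the 4 genes in 6 comparisons. Open points mark differences described without a test. Spp1 and Gpnmb were chosen for their knockout levels, so the intervals of their open points are not tests. All 4 genes lie far right of 0 against wild type, and for PKR knockout against EGFP Spp1 (1.39) and Gpnmb (1.18) lie to the right of Igf1 (0.09) and Lgals3 (0.17).

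Ratios between genes of the same library do not change when the library is rescaled, and they set the levels of the genes side by side. Across the 10 5xFAD libraries the ratio of Spp1 to Gpnmb stayed between 3.04 and 5.08, with a mean of 3.83 ± 0.66 (SD, n = 10), while Spp1 itself ran from 89.8 to 405 FPKM. By group it was 3.42 ± 0.45 (SD, n = 2) with EGFP, 3.95 ± 0.85 (SD, n = 4) with the circRNA and 3.91 ± 0.63 (SD, n = 4) with PKR knockout. In wild type it was 16.0 to 30.8, on the few Gpnmb fragments given above. The 2 libraries with the highest ratios, circRNA replicate 3 (5.08) and knockout replicate 3 (4.84), were also the highest of their groups for both genes.

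Set against Igf1, Gpnmb stood apart with PKR knockout, while Spp1 overlapped the circRNA group. The ratio of Spp1 to Igf1 was 6.79 to 7.51 with EGFP, 6.59 to 14.2 with the circRNA and 11.6 to 32.9 with PKR knockout. The ratio of Gpnmb to Igf1 was 2.01 to 2.19 with EGFP, 1.77 to 2.80 with the circRNA and 3.17 to 6.81 with PKR knockout, so that the knockout libraries lay above all others. Set against Lgals3 both genes were higher in every knockout library than in the other 5xFAD libraries: the ratio of Spp1 to Lgals3 was 11.5 to 12.3 with EGFP, 10.2 to 16.5 with the circRNA and 20.4 to 43.0 with PKR knockout. The ratio of Gpnmb to Lgals3 was 3.08 to 3.97, 2.59 to 3.78 and 5.96 to 8.87, in the same order. In circRNA replicate 3 the ratio of Spp1 to Igf1 was 14.2, above the other circRNA libraries at 6.59 to 8.19 and above 2 of the 4 knockout libraries, at 11.6 and 13.7. The ratio of Igf1 to Lgals3 was 1.16 to 1.90 in all 5xFAD libraries (mean 1.53 ± 0.24, SD, n = 10), with every pair of 5xFAD groups overlapping, and 0.276 to 0.468 in wild type. Since Spp1 and Gpnmb were chosen for high knockout levels, these ratios describe that choice and were not tested.

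**Figure D3:**
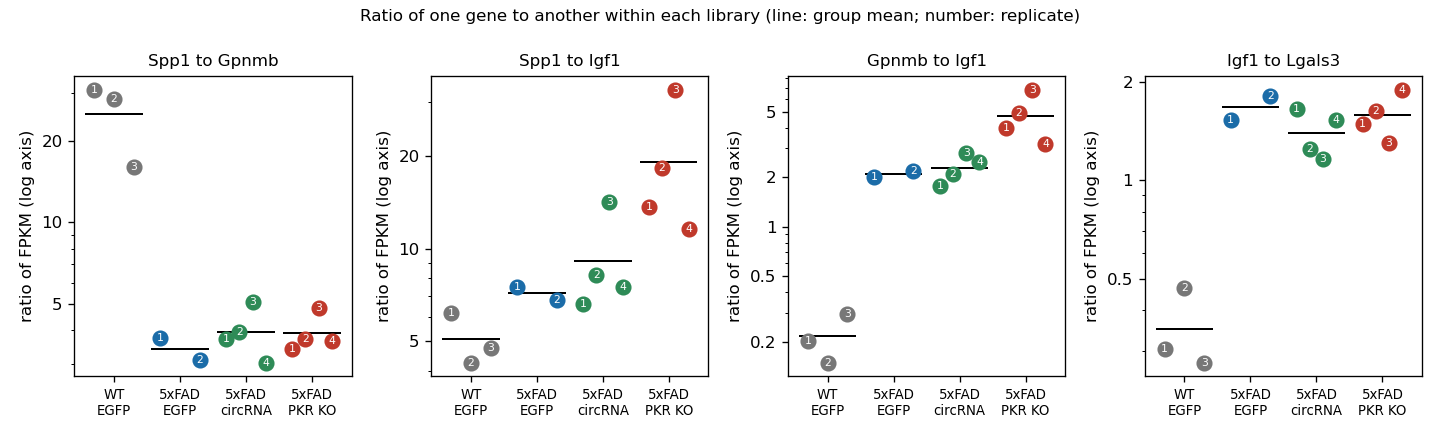
Ratio of FPKM of one gene to another within each library (log axis), by group, with points numbered by replicate and a line at the group mean. Spp1 to Gpnmb stays between 3.04 and 5.08 in the 5xFAD libraries, while Gpnmb to Igf1 is higher in all 4 PKR knockout libraries (3.17 to 6.81) than in the other 5xFAD libraries (1.77 to 2.80).

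The genes with the most similar profile were found by the root-mean-square difference between centred log2(FPKM + 1) values over the 13 libraries, among 10816 other genes. Spp1 and Gpnmb were each other's nearest gene, at 0.22. For both, the next were Itgax (0.51 from Spp1 and 0.41 from Gpnmb), which encodes the integrin CD11c, and Mamdc2 (0.71 and 0.59). Itgax was 2.35 ± 0.49 FPKM (SD, n = 3) in wild type, 81.3 ± 0.86 FPKM (SD, n = 2) with EGFP, 91.0 ± 16.7 FPKM (SD, n = 4) with the circRNA and 110 ± 7.31 FPKM (SD, n = 4) with PKR knockout. Its 5xFAD groups thus lay closer together than those of Spp1.

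Igf1 was nearest to Ch25h (0.17), the enzyme that makes 25-hydroxycholesterol, Ctse (0.18), the protease cathepsin E, and Ank (0.19), a transporter of pyrophosphate and ATP. Lgals3 was nearest to Nceh1 (0.15), a cholesteryl ester hydrolase, Cited4 (0.17) and Asb10 (0.17). Lgals3 was 53 in the order for Igf1, at 0.59. The order changed with the pseudocount. With a pseudocount of 0.1 in place of 1, Gpnmb was 11 in the order for Spp1 (0.81) and Spp1 was 3 in the order for Gpnmb. Over the 10 5xFAD libraries alone, Spp1 and Gpnmb were again each other's nearest gene, at 0.23. In that setting the nearest gene was Gm21972 for Igf1 (0.076) and H2ac20 for Lgals3 (0.074), and Lgals3 was 5210 in the order for Igf1 (0.20). Both settings were added after the data were seen. Spp1 and Gpnmb were both chosen for high knockout levels, which are part of these profiles, so their nearness describes that choice. Libraries and groups are shared by all genes, so the other distances are descriptions too.

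Genes for receptors and partners of the 4 proteins changed in both directions between 5xFAD and wild type. Of 10 listed osteopontin receptors, 7 passed the filter, and in 5xFAD with EGFP against wild type 3 rose and 2 fell, where 7.65% of all genes rose and 6.35% fell. Of the 3, Cd44, the hyaluronan receptor, was at 0.54 FPKM in wild type and passed the filter through 5xFAD libraries, and with no filter it rose by 0.57 (adjusted p = 0.0249). Itga5, the fibronectin receptor subunit, rose by 0.90 (adjusted p = 0.000727), Itgb3, which pairs with the alpha v subunit, by 0.72 (adjusted p = 0.00334), and Itga9 fell by 0.90 (adjusted p = 0.0254). The median over the list was 0.11, against −0.03 for all genes tested. The 2 falls were not called when wild type replicate 1 or 2 or either EGFP library was left out, or when scaled to the microglia markers. With PKR knockout 4 rose and 2 fell against wild type, and with the circRNA 3 rose and 2 fell, again led by Itga5 (1.16 and 1.07). Over all genes 17.5% rose and 19.4% fell with PKR knockout, and 17.8% rose and 8.05% fell with the circRNA. With the circRNA, 1 of the 2 falls was lost without wild type replicate 1 or 2 or circRNA replicate 1 or 4. None of the receptors passed between the 5xFAD groups. Of all genes, 0% passed for circRNA against EGFP, 0.0832% for PKR knockout against EGFP and 6.19% for PKR knockout against circRNA. Against EGFP the smallest unadjusted p with PKR knockout was that of Itgb5, at a difference of 0.56 (adjusted p = 0.283).

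Of 16 listed genes for IGF ligands, receptors, binding proteins and adaptors other than Igf1, 9 passed the filter, and 4 fell and 0 rose in 5xFAD with EGFP against wild type, where 6.35% of all genes fell. They were led by the binding proteins Igfbp7 (−1.67, adjusted p = 0.0104) and Igfbp4 (−0.83, adjusted p = 0.00592) and by Igf2r (−0.69, adjusted p = 0.0378), which clears IGF2. The list's median was −0.69. Igf1r, the receptor of the ligand, was 7.89 ± 1.98 FPKM (SD, n = 3) in wild type and 5.82 ± 0.26 FPKM (SD, n = 2) with EGFP and did not pass (adjusted p = 0.171). The count fell to 2 without EGFP replicate 1 and to 0 without EGFP replicate 2. With the circRNA 3 fell, against 8.05% of all genes. That count was 5 without circRNA replicate 4, 7 after rescaling to the same FPKM sum and 1 when scaled to the microglia markers. With PKR knockout 6 fell, against 19.4% of all genes, led by Igfbp2 (−1.79, adjusted p = 0.0120) and Igf2 (−1.63, adjusted p = 0.00616). Markers of blood vessels moved the same way: 5 of 6 endothelial and 5 of 5 tested mural cell markers fell in 5xFAD with EGFP, and the endothelial sum was 57.3 to 137 FPKM in wild type and 27.7 to 36.7 FPKM with EGFP. With the circRNA 2 of 6 endothelial and 4 of 5 mural cell markers fell, and with PKR knockout 5 of 6 and 5 of 5. Their part in the fall of the IGF genes was not tested.

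Of 10 listed galectins and galectin-3 binding protein, 5 passed the filter, and Lgals3bp, the secreted galectin-3 binding protein, was the 1 that rose in 5xFAD with EGFP against wild type, where 7.65% of all genes rose. Its difference was 2.08 (adjusted p = 0.000142), beside 1.80 for Lgals3, with 25.0 ± 7.60 FPKM (SD, n = 3) in wild type and 105 ± 9.24 FPKM (SD, n = 2) with EGFP. It rose by 2.39 with the circRNA and by 2.54 with PKR knockout, where Lgalsl (−0.67, adjusted p = 0.00620) and Lgals1 (−0.37, adjusted p = 0.0371) fell. Over all genes 17.8% rose with the circRNA, and 17.5% rose and 19.4% fell with PKR knockout. Of 7 listed relatives and partners of GPNMB, 5 passed the filter, and Mitf, a transcription factor of lysosomal and pigment cell genes, rose by 0.55 (adjusted p = 0.0103) with EGFP, again beside 7.65% of all genes. Its call was lost without either EGFP library. With PKR knockout against wild type Mitf rose by 0.86 (adjusted p = 5.13e-05) and Tfeb, its lysosomal relative, by 0.20 (adjusted p = 0.0385), while Adam10, a protease that sheds GPNMB, fell by 0.36 (adjusted p = 0.0177), beside the same shares of all genes. Scaled to the microglia markers, neither the Adam10 nor the galectin falls were called, and the Adam10 fall was also lost without wild type replicate 1 or 2. Of the 2 rises, 1 was called without wild type replicate 1 or 3 or knockout replicate 1, 2 or 3. Pmel was measured at 0.096 to 0.129 FPKM as group means and was not tested.

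The other genes of the late disease-associated programme rose with the 4. All 12 listed rose in each of the 3 5xFAD groups against wild type, also in the fit with no filter, and their median difference was 2.05 in 5xFAD with EGFP. Of all genes 7.65% rose with EGFP, 17.8% with the circRNA and 17.5% with PKR knockout. Cst7, the cystatin F gene, rose by 6.93 (adjusted p = 1.96e-10), and Itgax by 4.63 (adjusted p = 5.12e-09). Lpl, lipoprotein lipase, was at 0.55 FPKM in wild type, and with no filter it rose by 3.99 (adjusted p = 2.23e-06). Of the early disease-associated genes 6 of 7 rose, led by Apoe (2.51, adjusted p = 6.71e-06). Of 12 homeostatic genes 1 fell, Tmem119 (−1.07, adjusted p = 0.0227), a share near the 6.35% of all genes that fell. Its call was lost without wild type replicate 1 or 2 or either EGFP library, while 5 fell without wild type replicate 3 and 8 after quantile normalization. The lists were chosen with earlier results of these data known and are not independent evidence of direction.

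Between PKR knockout and EGFP in 5xFAD none of these lists had a gene that passed, where 0.0832% of all genes did, so nothing about the lists can be read from this. The late list, without the 4 genes, had a median of 0.30, and 10 of 12 genes were above 0, against a median of 0.01 for all genes. Cst7 had the smallest unadjusted p of the list, at a difference of 0.47 (adjusted p = 0.250), beside 1.39 for Spp1 and 1.18 for Gpnmb on the same scale. Of the early list, with a median of 0.31 and 6 of 7 genes above 0, Apoe, the lipid carrier apolipoprotein E, had the smallest unadjusted p, at a difference of 0.82 (adjusted p = 0.151). Its level was 1855 ± 242 FPKM (SD, n = 2) with EGFP, 2404 ± 144 FPKM (SD, n = 4) with the circRNA and 3290 ± 489 FPKM (SD, n = 4) with PKR knockout, and the knockout libraries lay above the others. The gene with the smallest unadjusted p was Tfeb among the GPNMB partners (0.28, adjusted p = 0.209), Lgals3bp among the galectin genes (0.46, adjusted p = 0.416), Igfbp7 among the IGF genes (0.54, adjusted p = 0.520) and P2ry13 among the homeostatic genes (−0.47, adjusted p = 0.343). Against the circRNA group, Csf1, a ligand of the receptor that maintains microglia, rose by 0.47 (adjusted p = 0.0350) and was the 1 late gene that passed, where 1.91% of all genes rose and 4.28% fell. Its call was lost without any of the 4 circRNA libraries and without knockout replicate 1, 2 or 4. The homeostatic gene P2ry13 fell by 0.64 (adjusted p = 0.0408) in the same comparison, and its call was kept in 1 of 8 fits that left out a library.

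**Figure D4:**
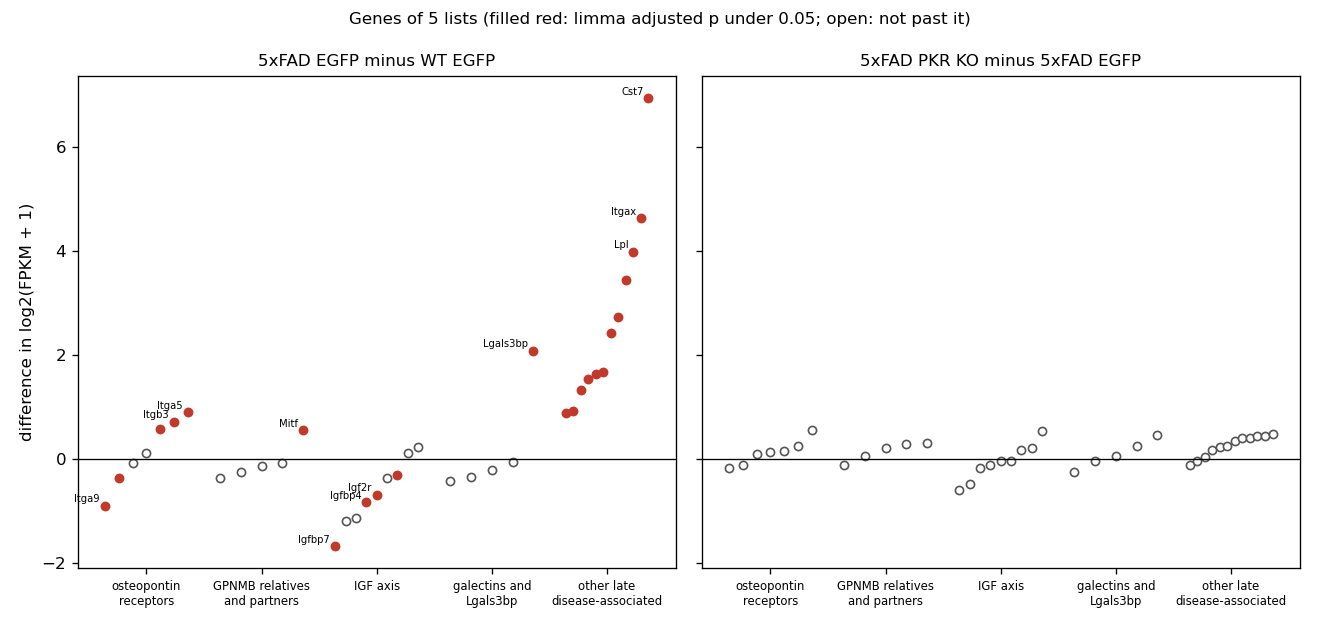
Difference in log2(FPKM + 1) of each tested gene of 5 lists in 5xFAD with EGFP against wild type and in PKR knockout against EGFP, filled where the limma adjusted p was under 0.05, with the names of up to 3 such genes in each list. The late disease-associated genes all rise against wild type (median 2.05), and no listed gene passes between PKR knockout and EGFP.

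Markers of other cell types were measured in the same libraries. The 7 border macrophage markers summed to 42.9 to 67.9 FPKM in wild type, 20.7 to 29.3 FPKM with EGFP, 16.1 to 27.9 FPKM with the circRNA and 16.3 to 22.0 FPKM with PKR knockout. All 6 tested fell in each 5xFAD group against wild type, where 6.35%, 8.05% and 19.4% of all genes fell with EGFP, the circRNA and PKR knockout. The monocyte markers summed to 0.891 to 2.56 FPKM over all 13 libraries with none reaching a mean of 1 FPKM in a group, fibroblast markers to 3.64 FPKM or less and T and NK cell markers to 0.650 FPKM or less. The 6 oligodendrocyte markers summed to 630 and 671 FPKM in the EGFP pair and to 218 to 370 FPKM with PKR knockout without overlap. All 6 were lower, with a median log2 difference of −1.59. None passed the test, where 0.0832% of all genes did, so nothing can be read from that count. The oligodendrocyte sums ranged from 342 to 1564 FPKM in wild type and from 297 to 775 FPKM with the circRNA. The 6 astrocyte markers summed to 78.3 to 258 FPKM in wild type and 127 to 184 FPKM with EGFP. With the circRNA they summed to 119 to 214 FPKM, and with PKR knockout to 132 to 204 FPKM. Gfap rose against wild type with EGFP (1.72), the circRNA (1.84) and PKR knockout (2.25). Gja1 (−1.36) and Aqp4 (−0.93) fell with PKR knockout. Of all genes 7.65%, 17.8% and 17.5% rose in the same order, and 19.4% fell with PKR knockout. Neutrophil markers, nearly all of it Csf3r, which microglia also express, summed to 116 to 131 FPKM with EGFP and 148 to 156 FPKM with PKR knockout. Sums were also higher with PKR knockout, without overlap, for endothelial markers (39.6 to 53.8 FPKM, against 27.7 to 36.7 with EGFP), microglia markers (4112 to 4339 FPKM, against 3754 to 4013) and T and NK cell markers (0.289 to 0.420 FPKM, against 0.183 to 0.266). Neuron markers were lower (5.49 to 9.48 FPKM, against 13.7 to 16.1). The part of these shifts in the Spp1 and Gpnmb levels was not tested, and no marker of the microglia, oligodendrocyte, border macrophage or neutrophil lists was at 0 in any library.

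**Figure D5:**
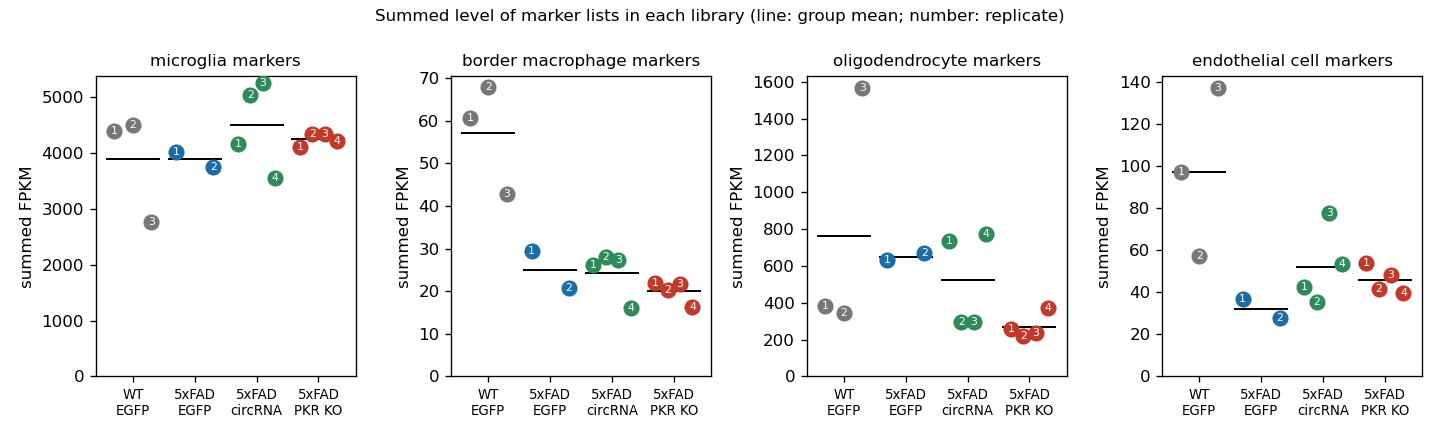
Summed FPKM of 4 marker lists in each library, by group, with points numbered by replicate and a line at the group mean. Border macrophage markers are highest in wild type (42.9 to 67.9 FPKM), and oligodendrocyte markers are lower with PKR knockout (218 to 370 FPKM) than in the EGFP pair (630 and 671 FPKM).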

How the data were processed

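The authors deposited 1 table of FPKM values with 1 column for each of 13 libraries, with no column of another sample. Stranded libraries were made from ribosomal RNA-depleted total RNA and sequenced on a NovaSeq instrument, per the labels' protocols. Bowtie2 2.3.5, HISAT2 2.1.0, featureCounts 1.5.1 and the build mm10 are named, per the submitters' processing notes, while the annotation and the strand setting of counting are not given in the sources used here. FPKM is divided by a library's total, so abundant genes that change can shift the others.

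Depth was recovered from the steps between low FPKM values with GENCODE M21 exon lengths (98.3% of genes). Of 47122 values below 0.3 FPKM, 90.7% were whole within 0.02 fragments. The counting error of the 4 genes was at most 3.68% in 5xFAD libraries and does not cover differences in cell isolation or library making.

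Libraries were grouped by title. Differences were tested with limma 3.58.1 (R 4.3.3) on log2(FPKM + 1) for the 10817 genes whose mean reached 1 FPKM, in 1 model with 4 group means and 9 residual degrees of freedom, eBayes with an intensity trend, and Benjamini-Hochberg adjustment over all genes within each of 6 comparisons, at a threshold of 0.05. The code was tested on simulated data. Alternatives were other pseudocounts, filters, scalings and weights, the compared groups alone, voom on recovered fragments, a replicate block and leaving out each library. Genes named with a group below the filter were given the p-value of the fit with no filter, a choice made after their values were seen. The members, lists and tests were chosen with earlier results of these data known. Named were the 4 genes, the 3 nearest profiles of each, Eif2ak2 and, from each list and comparison, up to 3 called genes with the largest change or, with none called, the gene with the smallest unadjusted p. Igf1r, Pmel and Csf3r were named after their values were seen.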

Additional observations from a re-analysis of the deposited data

Results flagged for a closer look

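Gpnmb in the circRNA group had a highest library, replicate 3 at 47.5 FPKM, whose gap to the next was a larger share of the group's range than Dixon's 95% limit for 4 samples. Chance gives such a gap in about 1 of 20 groups. The same library was the highest of its group for Spp1 (241 FPKM), Igf1 (17.0 FPKM) and Lgals3 (14.6 FPKM), which stayed within the limit.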

How the results depend on the processing

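The 10 tested differences of the 4 genes from wild type kept their direction and stayed past the threshold under each of 11 alternatives and in 62 of 62 fits that left out a library. Apart from the setting with no filter, these fits used a filter on mean level, which Gpnmb and Igf1 passed through the 5xFAD libraries alone. For Gpnmb and Igf1 they are thus no further support, and the p-values given above come from the fit with no filter. For circRNA against EGFP, 3 small differences changed sign and stayed far from the threshold. Igf1 was −0.00796 when libraries were rescaled to the same FPKM sum and −0.0909 when scaled to the microglia markers, and Gpnmb was −0.00026 with the latter, a scaling added after the data were seen. Gpnmb with PKR knockout against wild type was 8.27 with a pseudocount of 0.1, 5.57 after quantile normalization and 9.14 with voom, against 5.93. The tested Gpnmb differences from wild type ran from 4.55 to 7.94 with EGFP and from 4.63 to 8.15 with the circRNA, highest with voom in both. Gpnmb was at 0.118 FPKM in wild type, a level at which adding 1 FPKM understates a change. The part of this in these ranges was not tested. PKR knockout against EGFP ranged from 1.13 to 1.43 for Spp1 and from 1.02 to 1.22 for Gpnmb. Igf1 in PKR knockout against circRNA lay on both sides of 0 (−0.05 to 0.11, and −0.11 to 0.07 with a library left out), as it did against EGFP (−0.00193 to 0.13). Leaving out each library gave 0.10 to 0.57 for Spp1 in circRNA against EGFP and 0.78 to 1.29 in PKR knockout against circRNA. Rescaling to the same FPKM sum moved the median of all genes against wild type to −0.17, −0.20 and −0.24 for EGFP, circRNA and PKR knockout.

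Correlations of same-numbered libraries ran from −0.42 to 0.69, and libraries with different numbers were not compared. These values cannot decide whether the replicate numbers pair the libraries. With a replicate block the differences of EGFP against wild type were 4.88 for Spp1 (adjusted p = 5.92e-06), 4.86 for Gpnmb, 3.22 for Igf1 and 1.86 for Lgals3, and no call of the 4 genes changed. The block removed the Csf1 call, 1 of the 2 receptor falls with EGFP and with the circRNA, and 1 of the 2 galectin falls with PKR knockout.

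Counts over all genes moved more. EGFP against wild type gave 1514 genes, from 509 with these groups alone to 3733 after rescaling, and 566 to 1998 with a library left out. The circRNA against wild type gave 2796 (1464 to 5714) and PKR knockout against wild type 3997 (1934 to 6639). PKR knockout against EGFP gave 9, from 0 to 822 with array weights and 0 to 2 with a library left out, and against circRNA 670 (132 to 3161, and 147 to 506). With the fits that left out a library included, calls of falling genes against wild type ranged, for EGFP, circRNA and PKR knockout, from 0 to 6, 1 to 7 and 3 to 7 around 4, 3 and 6 in the IGF list, from 0 to 3, 1 to 3 and 2 to 4 around 2, 2 and 2 for osteopontin receptors, and from 0 to 8, 1 to 8 and 2 to 10 around 1, 1 and 3 for homeostatic genes. They ranged from 0 to 3 around 0, 0 and 2 for galectins, and from 0 to 1, 0 to 4 and 0 to 2 around 0, 0 and 1 for GPNMB partners. In wild type, Gpnmb rests on 31 to 48 fragments, which limits its fold.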
